A study of Rattus norvegicus with 4 samples.

Results

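The renin angiotensin system was examined in glomeruli of rats given Adriamycin, through 7 genes chosen by name: Agt, Ace, Agtr1a, Agtr1b, Agtr2, Enpep and Atp6ap2. Values were used for 5 of these, among 13261 genes in all, and Agt (angiotensinogen) and Agtr2 (the type 2 angiotensin receptor) were not analysed here. The samples form a single group of 4, from male Wistar rats injected intravenously with Adriamycin (ADR, the anthracycline doxorubicin) that weighed between 150 and 175 g. No samples without ADR, and none given an agonist of the receptor PPARγ, were analysed here. Wistar rats are outbred, the labels name harvest on day 11 or 21 without saying which applies, and glomeruli were obtained by sieving the kidney. The values therefore describe levels under ADR and the differences between samples, and carry no direction of change.

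The pathway makes and removes angiotensin II, a peptide that constricts vessels and raises the pressure in the glomerulus. Angiotensinogen is cut to angiotensin I, and angiotensin converting enzyme (Ace) trims this to angiotensin II. Aminopeptidase A (Enpep), a surface enzyme of podocytes and proximal tubule cells, removes the first amino acid of angiotensin II. Rodents have a pair of genes for the type 1 receptor, Agtr1a and Agtr1b, which are close copies in their coding parts. Atp6ap2, the prorenin receptor, binds prorenin and is also an accessory subunit of the vacuolar proton pump. Blockade of this pathway is a standard treatment of proteinuria.

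Poly(A) RNA was sequenced, and levels are given in CPM, counts per 1000000 reads in the listed genes. Replicates 1 to 4 held 13566962, 16207027, 15348629 and 15244063 reads in the 13261 genes, and each member had at least 202 reads in every sample. All 12 podocyte markers had values and were highest in replicate 1 and lowest in replicate 2, with a summed level between 6098 and 11008 CPM. All 12 proximal tubule markers also had values and were lowest in replicate 3, with a sum between 3221 and 6449 CPM. Values were present for 9 of 10 endothelial markers, 8 of 8 mesangial and smooth muscle markers, 6 of 6 macrophage and leukocyte markers and 2 of 3 juxtaglomerular markers; Pecam1 and Akr1b7 were not analysed here. Podocyte and tubular marker levels thus differed between the libraries, and they are set beside the members below. Mitochondrial genes took 12.5% of reads in replicate 2, the sample with the lowest podocyte markers, against 7.46%, 9.34% and 7.56% in replicates 1, 3 and 4. The titles number replicates 2 to 4 consecutively and replicate 1 apart from them, and what the numbers mark is not given in the sources used here. In such bulk samples, fewer cells of a type and less RNA per cell cannot be told apart.

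The type 1 receptor genes are introduced by the sequence before their starts, since both were counted at similar read levels and both were lowest in the same sample. Each run below holds the 250 bases upstream of the start in RefSeq (build GRCr8), Agtr1a from chr17:34435433-34435682 and Agtr1b from chr2:104849263-104849512, both on the minus strand. Sequences are written in the gene's direction, and capitals mark a match to any of 5 short motifs searched on both strands.

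Agtr1a: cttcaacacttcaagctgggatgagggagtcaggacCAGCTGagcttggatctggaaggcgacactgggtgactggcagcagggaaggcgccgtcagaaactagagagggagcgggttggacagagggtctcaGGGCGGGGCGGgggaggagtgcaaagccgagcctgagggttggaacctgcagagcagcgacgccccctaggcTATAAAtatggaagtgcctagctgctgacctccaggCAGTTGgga

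Agtr1b: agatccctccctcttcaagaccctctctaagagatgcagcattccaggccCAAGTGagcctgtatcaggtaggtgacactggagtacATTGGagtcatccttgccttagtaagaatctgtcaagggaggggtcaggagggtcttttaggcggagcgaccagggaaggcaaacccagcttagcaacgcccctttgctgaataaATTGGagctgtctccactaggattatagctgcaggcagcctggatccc

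The motifs were the TATA box TATAAA, the CCAAT box with that spelling, the GC box written GGGCGG, the glucocorticoid receptor half-site AGAACA and the E-box CANNTG, and those found did not overlap one another apart from the pair of GC boxes, which share a base. Upstream of Agtr1a, TATAAA began 45 bases before the start, with GGGCGG at 117 and 112 bases and CANNTG at 214 and 9 bases. Upstream of Agtr1b, CCAAT matched on the reverse strand at 163 and 48 bases, and CANNTG at 200 bases before the start. The receptor genes thus shared the E-box alone of these motifs, and AGAACA was found in neither window. Among 33469 promoter windows of the same length, 12.9% held the TATA box, 34.0% the CCAAT box, 30.5% the GC box, 17.5% the half-site and 65.5% the E-box. GC content was 60.8% for Agtr1a and 52.8% for Agtr1b, against a median of 51.2%, and the longest run of bases common to both windows was 10.

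Among the enzymes, Enpep (ENSRNOG00000051854) was among the most heavily read genes of these glomeruli, at level percentile 99.5 of all genes. It had 1482, 895, 867 and 1499 CPM in replicates 1 to 4. Replicates 1 and 4 were thus close to each other and above replicates 2 and 3, which were also close to each other, with a ratio of 1.73 between the highest and the lowest sample. The mean was 10.16 ± 0.44 log2 CPM (SD, n = 4). The podocyte marker mean, relative to its own average, was 0.50, -0.64, -0.11 and 0.25 in replicates 1 to 4 on the log2(CPM + 1) scale, and the proximal tubule mean was 0.41, 0.10, -0.61 and 0.10. Enpep was 0.37, -0.36, -0.40 and 0.39 on that scale. The within-sample difference from the podocyte list had an SD of 0.26, against 0.44 for Enpep alone, and that from the proximal tubule list had an SD of 0.33. The part of podocyte and tubular content in the Enpep values was not tested.

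Ace (ENSRNOG00000062101), which makes angiotensin II and is carried by endothelium and by the tubular brush border, was the least read member. It had 14.9, 31.7, 30.9 and 23.9 CPM in replicates 1 to 4, from 202, 513, 475 and 364 reads. Replicate 1 was lowest and its 95% exact binomial interval, 12.9 to 17.1 CPM, lay below the interval of each other sample, the nearest being 21.5 to 26.5 CPM in replicate 4. Such intervals cover counting error only. The mean was 4.60 ± 0.50 log2 CPM (SD, n = 4), near the middle of all genes at level percentile 45.1. Without replicate 1 the SD was 0.23. Ace was lowest in the sample in which both the podocyte and the proximal tubule means were highest. Its difference from the podocyte list had an SD of 0.94, the largest among the 6 lists, while the endothelial mean was -0.18 in replicate 1 and 0.18 in replicate 3. The difference of Ace from the endothelial list had an SD of 0.34 and that from the macrophage and leukocyte list 0.32. The part of cell content in the Ace values was not tested.

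The receptor gene Agtr1a (ENSRNOG00000018346), found in mesangial and vascular smooth muscle cells and in podocytes, had 90.4, 58.1, 90.0 and 110.3 CPM in replicates 1 to 4. Replicates 1 and 3 were level with each other, replicate 2 was lower and replicate 4 higher. The mean was 6.41 ± 0.39 log2 CPM (SD, n = 4), and without replicate 2 the SD was 0.17. Agtr1b (ENSRNOG00000010640) had 83.3, 53.7, 85.3 and 145.8 CPM. It kept the same order of samples at the ends, lowest in replicate 2 and highest in replicate 4, with a ratio of 2.71 between them. The mean was 6.43 ± 0.59 log2 CPM (SD, n = 4), and without replicate 4 the SD was 0.38.

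Reads of both receptor genes summed to 174, 112, 175 and 256 CPM. Agtr1b took 48.0% of them in replicate 1 (45.9% to 50.003%), 48.0% in replicate 2 (95% exact binomial interval 45.7% to 50.4%), 48.7% in replicate 3 (46.8% to 50.6%) and 56.9% in replicate 4 (55.4% to 58.5%). Agtr1b thus had slightly fewer reads than Agtr1a in replicates 1 to 3, each with an interval that reached 50%, and more in replicate 4, whose interval lay above those of the others. The genes are known as close copies, their coding sequences were not compared here, and the treatment of reads that fit both is not given in the sources used here, so the division of reads between them is uncertain. The mesangial and smooth muscle marker mean ranged from -0.14 in replicate 2 to 0.17 in replicate 4 around its average, but its genes did not move as one. Pdgfrb, Itga8, Thy1, Gata3 and Cspg4 were lowest in replicate 2, as were both receptor genes, whereas the contractile and filament genes Des, Acta2 and Tagln were highest there. The difference of Agtr1a from that list had an SD of 0.27 and that of Agtr1b 0.45, against 0.38 and 0.58 for the genes alone on the log2(CPM + 1) scale. The differences from the podocyte list had like SDs, 0.28 for Agtr1a and 0.43 for Agtr1b. Replicate 2 also had the highest mitochondrial share, and when mitochondrial reads were not counted in the library size the SD of log2 CPM was 0.35 for Agtr1a and 0.56 for Agtr1b. The part of cell content in the receptor values was not tested.

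**Figure D1:**
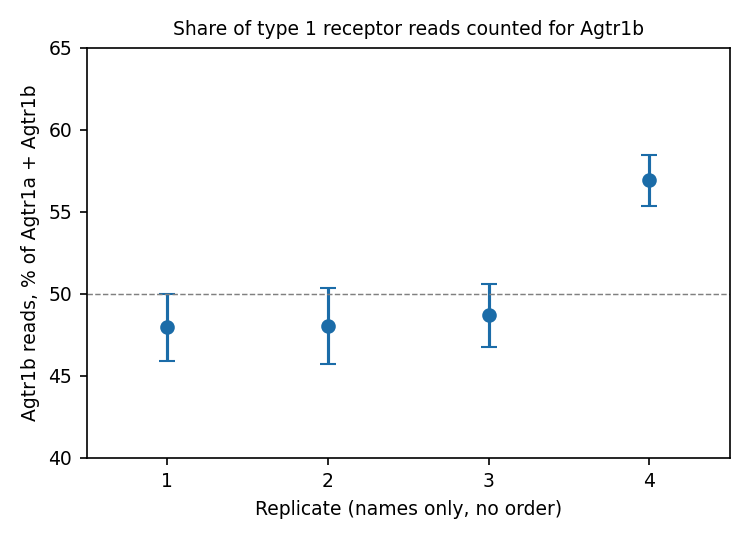
Percent of the reads counted for Agtr1a and Agtr1b together that were counted for Agtr1b (y axis, which does not start at 0) in each replicate (x axis), with 95% exact binomial intervals as bars and a dashed line at 50%. Replicates 1 to 3 sit between 48.0% and 48.7%, and replicate 4 at 56.9% is above all 3.

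Atp6ap2 (ENSRNOG00000003858), the prorenin receptor, was the most even member. It had 129.7, 100.6, 100.8 and 125.5 CPM in replicates 1 to 4, with replicates 1 and 4 above replicates 2 and 3 as for Enpep. The ratio of the highest to the lowest sample was 1.29, and the mean was 6.82 ± 0.20 log2 CPM (SD, n = 4). Its SD stood at percentile 54.6 of all genes, whereas Enpep stood at 90.4, Agtr1a at 87.0, Ace at 93.9 and Agtr1b at 96.5. Atp6ap2 was highest in replicate 1 and lowest in replicate 2, as was the podocyte list. Its difference from that list had an SD of 0.33 and that from the proximal tubule list 0.32, both larger than the 0.20 of Atp6ap2 alone on the log2(CPM + 1) scale. The smallest SD was for the difference from the mesangial and smooth muscle list, at 0.195 against 0.196 for Atp6ap2 alone. The part of cell content in its values was not tested.

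**Figure D2:**
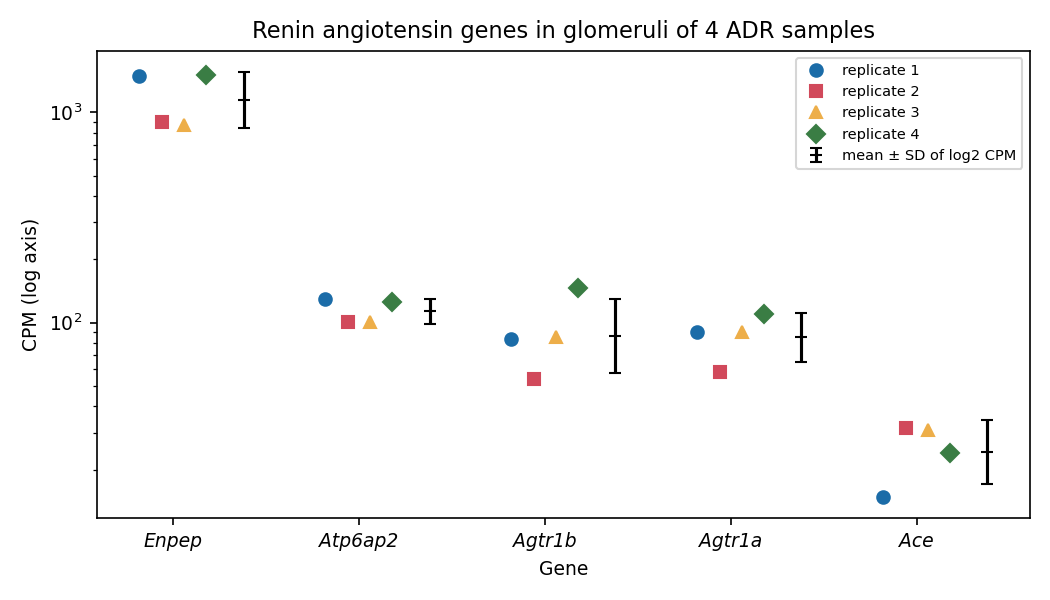
CPM of the 5 members (y axis, log scale) in each of the 4 ADR replicates (symbols), with the mean and SD of log2 CPM as black bars. Enpep lies between 867 and 1499 CPM and Ace between 14.9 and 31.7 CPM, and the symbols of Atp6ap2 lie closest together.

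In order of reads per gene, the members ran Enpep, Atp6ap2, Agtr1b, Agtr1a and Ace. Since CPM is not set per transcript length, this is an order of reads and not of transcript number. Enpep exceeded Atp6ap2 by 3.34 ± 0.24 (log2 CPM, SD, n = 4), in 4 of 4 samples. Agtr1a exceeded Ace by 1.80 ± 0.76, also in 4 of 4. For both, the two-sided exact sign-flip permutation test gave p = 0.125, the smallest that 4 samples allow, and an adjusted p of 0.25 over the 4 neighbouring pairs. Atp6ap2 exceeded Agtr1b in 3 of 4 samples, by 0.39 ± 0.49 (exact permutation p = 0.25, adjusted 0.333). Agtr1b differed from Agtr1a by 0.02 ± 0.25 and was the higher of the pair in replicate 4 alone (exact permutation p = 1). Without replicate 4 the difference was -0.10 ± 0.02 (SD, n = 3; exact permutation p = 0.25, the smallest that 3 samples allow). Atp6ap2 minus Agtr1b was then 0.59 ± 0.33 (exact permutation p = 0.25). With all 4 samples neither of these pairs differed beyond its spread, and this rests on replicate 4.

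The spread between samples was then tested in 2 ways, each over all 13261 genes. The first was whether reads differed more than their sampling allows, by a chi-square index of dispersion with Benjamini-Hochberg adjustment. All 5 members passed, as did 69.5% of all genes, so that passing does not set the members apart. The largest adjusted p among them was 7.78e-20, for Atp6ap2. The second was whether a gene varied more than genes of like level, by limma's abundance trend. With a threshold of 0.05 on the adjusted p, it called 0 of the 5 members and 0 of all genes (0%), and the members' adjusted p ranged from 0.912 to 0.978 (limma, Benjamini-Hochberg). Magi2, a podocyte marker that differed 4.61-fold between samples, was not called either (limma adjusted p = 0.912), so the absence of calls with 4 samples does not show that the members vary as other genes do. Before adjustment, 3 of 5 members were under 0.05 in the limma fit, against 5.47% of all genes: Agtr1b, Ace and Agtr1a had unadjusted values of 0.0122, 0.0381 and 0.0482. Enpep and Atp6ap2 had unadjusted values of 0.116 and 0.285. A total of 4 members combined variation beyond counting noise with an SD above 0.29, the 75th percentile of all genes, and 23.4% of all genes did so. Under 0.05 before adjustment in the limma fit were also 7 of 12 podocyte, 9 of 12 proximal tubule and 0 of 9 endothelial markers. Past counting noise and with an SD above 0.29 were 9, 11 and 1 of these markers. Neither count is thus particular to the members. The labels give the 4 replicates as separate samples and do not say whether each came from 1 rat. The p-values therefore measure the spread between samples, which may be technical.

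**Figure D3:**
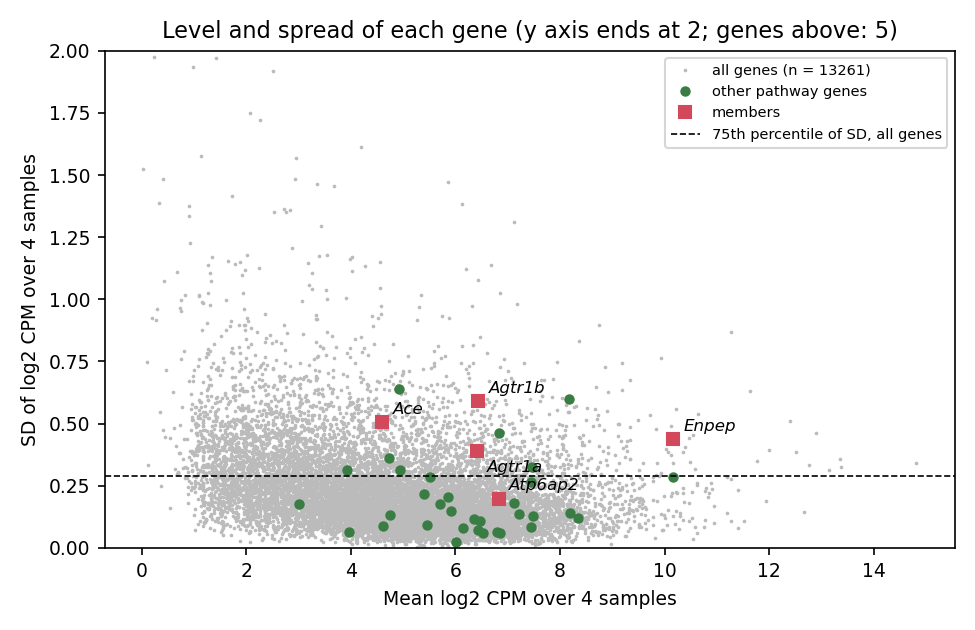
SD of log2 CPM over the 4 samples (y axis, ending at 2, with 5 genes above) against mean log2 CPM (x axis) for all 13261 genes in grey, the members as red squares and the other pathway genes as green circles, with the 75th percentile of the SD dashed. All members apart from Atp6ap2 lie above the dashed line.

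The cell content of each library is drawn beside the genes as deviations from their means. Enpep shared its high values with the podocyte list in replicates 1 and 4, yet was about as low in replicate 3 as in replicate 2, where the podocyte means were -0.11 and -0.64. Both receptor genes were lowest in replicate 2, as was the podocyte list, and highest in replicate 4. The means of the juxtaglomerular and of the mesangial and smooth muscle list were also highest in replicate 4, but this held for 4 of 8 genes of the latter and 1 of 2 of the former: Gja5 was highest in replicate 4 and Rgs5 in replicate 3. The mean of Gja5 and Rgs5 was -0.05, -0.26, 0.09 and 0.22 in replicates 1 to 4, and the difference of Agtr1a from it had an SD of 0.20 and that of Agtr1b 0.39. With 4 samples such likeness is a description only.

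**Figure D4:**
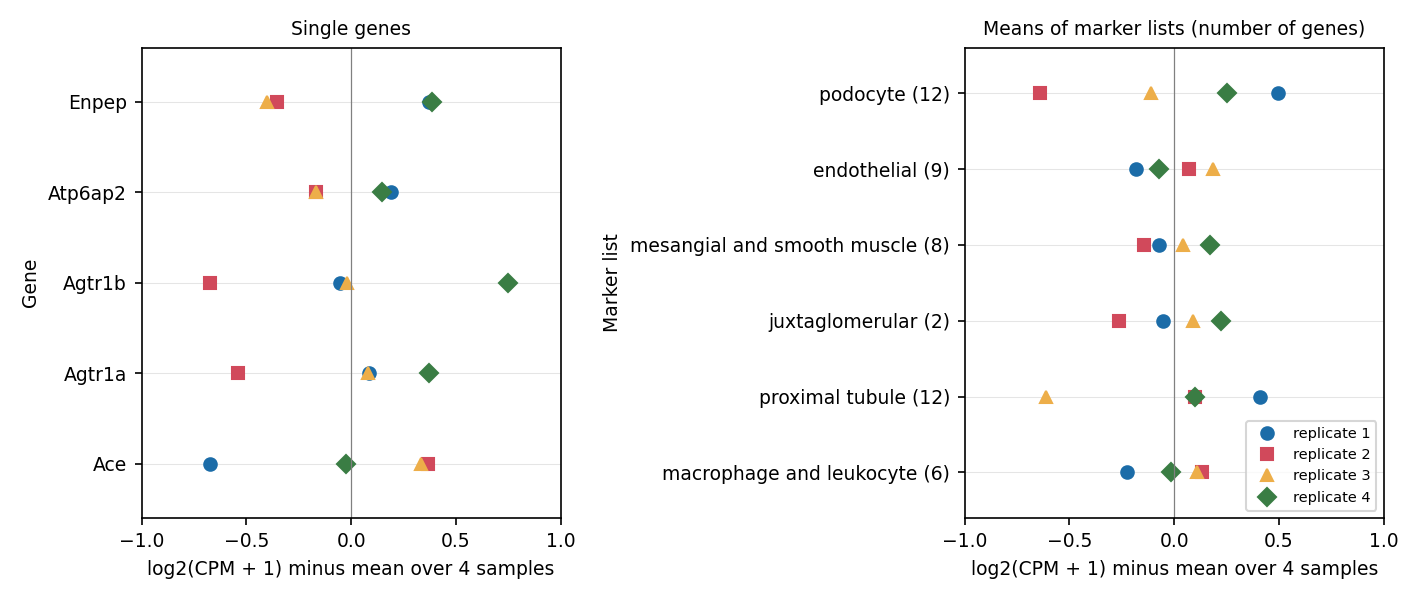
Deviation of log2(CPM + 1) from its mean over 4 samples (x axis) for the members (left panel) and for the means of 6 marker lists (right panel, number of genes in brackets), with a symbol per replicate. In replicate 1, Ace at -0.67 is lowest, while the podocyte and proximal tubule means are highest.

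The wider pathway was read from a list of 45 genes by role, of which 38 had values, the 5 members among them. The counts below therefore include the members, of which 5 varied beyond counting noise, 3 were under 0.05 before adjustment and 4 had a large SD. Of the 38, 32 varied beyond counting noise, against 69.5% of all genes. Their median was 6.42 log2 CPM against 4.85 for all genes, and this test finds smaller differences in genes with more reads. Limma's abundance trend called 0 at an adjusted p under 0.05 and 6 before adjustment, against 5.47% of all genes. The median SD was 0.18, the same to 2 decimals as the 0.18 of all genes, and 11 of 38 combined counting-noise variation with an SD above 0.29, against 23.4% of all genes. Replicate 1 was the highest sample for 24 of the 38, against 27.7% of all genes.

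Among 10 listed enzymes that form or convert angiotensins, 7 had values, with a median of 4.76 log2 CPM and a mean over genes of 5.51, and Cma1, Cpa3 and Ctsg were not analysed here. Ctsa (cathepsin A, a lysosomal carboxypeptidase) had the most reads, at 1164 ± 235 CPM (SD, n = 4). Mme (neprilysin, which makes angiotensin 1-7) had 48.5, 19.3, 22.5 and 39.8 CPM in replicates 1 to 4. Its samples thus fell in the same order of high and low as those of Enpep, replicates 1 and 4 above replicates 2 and 3, with the highest and the lowest where the podocyte list had them. Thop1 (thimet oligopeptidase) had the fewest reads, at 15.7 ± 0.69 CPM, and did not pass the counting-noise test (adjusted p = 0.722, chi-square over all genes), nor did Prcp, a carboxypeptidase, at 24.5 ± 1.48 CPM. In this role group 5 of 7 genes passed that test, a share near the 69.5% of all genes.

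Of the 5 peptidases that trim angiotensins from their first residues, 4 varied beyond counting noise, as did 69.5% of all genes. Anpep (aminopeptidase N, a brush border enzyme) had 155, 110, 74.3 and 134 CPM in replicates 1 to 4, lowest in replicate 3 as was the proximal tubule list. Lnpep, the angiotensin IV binding aminopeptidase, had the fewest reads at 15.4 ± 3.12 CPM. Dpp3, a dipeptidyl peptidase that cleaves angiotensin II in plasma and cytosol, was nearly flat at 64.1 ± 1.09 CPM (SD, n = 4), with an SD of 0.02 on the log2 scale. The group therefore held the gene with the smallest SD of the 38 and also Anpep, which differed 2.09-fold between samples.

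Of the receptors, Mas1 and Mrgprd were not analysed here along with Agtr2, so that Agtr1a and Agtr1b alone represent them. Among 9 receptor partners and effectors, 7 varied beyond counting noise, against 69.5% of all genes. Cltrn (collectrin, a tubular membrane protein) varied most, with 450, 295, 165 and 318 CPM in replicates 1 to 4, highest and lowest in the same samples as the proximal tubule list. Mtus1, an interaction partner of the type 2 receptor, had the most reads at 326 ± 27.9 CPM, and Nr3c2, the mineralocorticoid receptor, had the fewest at 8.09 ± 0.97 CPM. The arrestin genes Arrb1 and Arrb2, which desensitise receptors, had SDs of 0.31 and 0.36 log2 CPM. Arrb1 was lowest in replicate 2 and Arrb2 in replicate 1, so that they did not share their low sample.

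The vacuolar proton pump was included because Atp6ap2 belongs to it. All 14 listed subunit genes had values, with a median of 6.82 log2 CPM and a median SD of 0.11. Of the 14, 13 varied beyond counting noise (69.5% of all genes did). All genes had a lower median, 4.85 log2 CPM, so these shares do not compare genes of like level. Replicate 1 was highest for 11 of them, against 27.7% of all genes, and replicate 3 lowest for 9, against 19.6%. The proximal tubule mean was highest and lowest in the same samples, with 8 of 12 genes highest in replicate 1 and all 12 lowest in replicate 3; its part in the subunit values was not tested. Atp6v1a, the catalytic subunit of the peripheral sector, had 237, 151, 144 and 186 CPM, and was the only subunit gene with an SD above the 75th percentile. Atp6v0c, of the proton-carrying ring, had the most reads at 293 ± 27.5 CPM and Atp6v1f the fewest at 60.9 ± 6.27 CPM. Atp6ap2 was highest in replicate 1 as these were, and its values in replicates 2 and 3, at 100.6 and 100.8 CPM, were nearly equal.

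**Figure D5:**
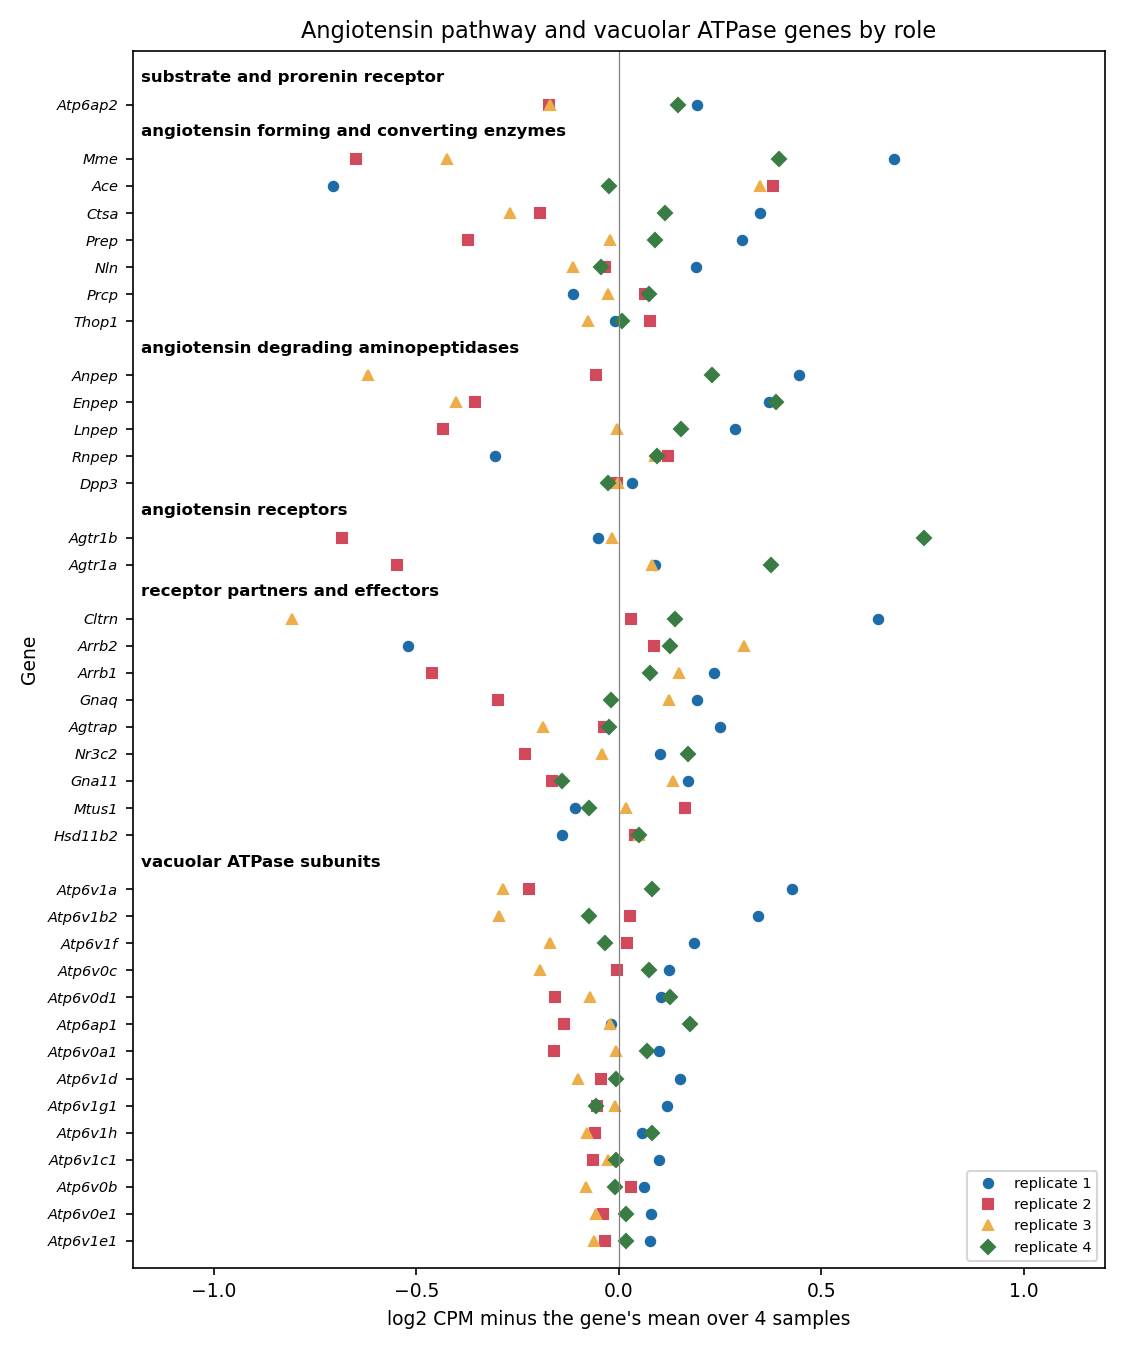
Deviation of log2 CPM from each gene's mean over 4 samples (x axis) for the 38 pathway genes with values (y axis), grouped by role and sorted by SD, with a symbol per replicate. The subunit genes of the vacuolar ATPase lie close to 0 and mostly have replicate 1 at the right, while Mme, Agtr1b and Cltrn spread widely.

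For the 4 members with a large SD, the genes with the most similar pattern were found by the root-mean-square distance of mean-centred log2 CPM over the 4 samples, among 11178 genes with a mean of at least 100 reads. Among the nearest to Enpep were Ankh and Sc5d, at distances of 0.05 and 0.06, and 22 genes lay within 0.1. Agtr1a was closest to Twist1 (0.05), Zeb2 (0.05) and AABR07068214.1 (0.05), with 37 genes within 0.1. Ace was closest to Tpm2 (0.03), Ccdc28b (0.04) and Phospho1 (0.04), with 39 within 0.1. Tpm2 had 985, 2616, 2390 and 1766 reads in replicates 1 to 4. Agtr1b had no gene within 0.1, and its nearest were Arrdc3 (0.10), LOC690507 (0.10) and Cxcl12 (0.14). LOC690507 had 2511, 1818, 3308 and 5325 reads, lowest in replicate 2 and highest in replicate 4 as was Agtr1b. With 4 samples and many genes, close neighbours can arise without any link between the genes, and nothing about shared control follows.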

How the data were processed

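Poly(A) RNA of sieved glomeruli was measured in 4 samples from rats. The deposited table holds log2 values, and no header states how the authors made them. The submitters' processing notes name HISAT2, featureCounts, Subread, limma and build Rnor_6.0. The annotation release, use of strand and filter on low genes are not given in the sources used here. In each column of the deposited log2 values, 2 to the value is a whole number of reads plus 0.5, times a constant (largest deviation 0.00142 reads), so reads were recovered. A read was worth 0.0617 to 0.0737 CPM. Left out were 4 displaced rows, and 116 rows sharing a symbol were not used by name. The number of value columns of no sample was 0.

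Counting noise was tested on recovered reads (scipy 1.17.1, 3 degrees of freedom). Excess spread was tested on log2(CPM + 1) with limma 3.58.1 (R 4.3.3). The planned design foresaw counts or CPM, and the tests were adapted to log2 values. Replicate numbers follow accession order. Members and gene lists were chosen with earlier results of these data known. The rule for naming genes took the members, the highest and lowest gene of each role group, role-group genes with a large SD, and 3 nearest genes per variable member. Named beyond this rule are Prcp and Dpp3, some marker genes and the genes flagged below. Some genes named by this rule, among them marker genes, are given only within lists, and some are not reported here. Alternatives were other scalings, pseudocounts, a read filter, a robust prior and each sample left out.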

Additional observations from a re-analysis of the deposited data

Results flagged for a closer look

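Dixon's gap-to-range ratio passed its 95% critical value for 4 samples in 3 of the 48 values looked at, where chance gives 2.4. The within-sample difference of Agtr1b and Agtr1a was set apart by replicate 4 (ratio 0.920): it was -0.12, -0.11 and -0.08 log2 in replicates 1 to 3 and 0.40 in replicate 4. Rnpep (arginyl aminopeptidase) was set apart by replicate 1 (0.925), with 46.6 CPM against 61.3 to 62.7 CPM in the others. Hsd11b2, the enzyme that inactivates corticosterone, was also set apart by replicate 1 (0.939), with 39.95 CPM against 45.2 to 45.6 CPM. Hsd11b2 did not pass the counting-noise test over all genes (adjusted p = 0.0879).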

How the results depend on the processing

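Members kept their counting-noise calls, 5 of 5, with each sample left out, under 3 other scalings and with genes under a mean of 50 reads removed. The number of pathway genes called ranged from 24 without replicate 1 to 33 with median-of-ratios factors, and that of all genes from 7326 to 9312. Limma's trend called 0 genes under each alternative run. One sign changed: the mean difference of Agtr1b and Agtr1a was 0.02 with 4 samples and -0.10 without replicate 4, and with each replicate left out in turn it ranged from -0.102 to 0.0711. No direction can be given for that pair. Other scalings shifted a sample by at most 0.05 log2. Mean levels of the members moved by less than their SD throughout, but most of this was fixed in advance. Leaving out 1 of 4 samples cannot move a mean by its SD. The other scalings kept the same geometric mean of library sizes, so they cannot change a mean log2 level over the 4 samples. Those parts of the comparison are uninformative for mean levels. With the mean over genes in place of the median, the level moved from 4.76 to 5.51 log2 CPM for the forming and converting enzymes and from 6.82 to 6.91 for the vacuolar ATPase subunits. Levels per coding or transcript length were not run, since no lengths were used here. Among the 5 members, depth limits Ace most, with 202 to 513 reads; of the pathway genes, Nr3c2 had 111 to 138.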
